A study of Homo sapiens with 3 samples.

Results

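The actomyosin cytoskeleton of LX-2 cells was described here through 39 genes that encode actins, myosin subunits, actin-binding and adhesion proteins and regulators such as ROCK1 and SRF. The members were a fixed list of gene symbols, picked by function and not by a threshold on their values, and all 39 were found among the 24254 symbols of the deposited table. LX-2 is an immortalized line of human hepatic stellate cells, and the agent, rhFGF19, is a recombinant form of the bile acid-responsive hormone FGF19. The study asked which gene expression states stellate cells take up under rhFGF19, and sequenced the mRNA of 1 vehicle-treated culture, 1 culture at 50 ng/mL and 1 culture at 100 ng/mL, all of the same line. Stimulation lasted 24 h by the study's design, whereas 72 h and 73 h stand in the sample records, where 1 field also swaps the doses. The sample titles were followed for dose. With 1 library per condition no comparison had a replicate check, and no p-value or SD between replicates could be given. Below, values in threes are in the order vehicle, 50 and 100 ng/mL, and pairs of differences in the order 50 and 100 ng/mL.

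Hepatic stellate cells that become myofibroblasts build contractile bundles in which non-muscle and smooth muscle isoforms of actin, myosin light chain, calponin, transgelin and tropomyosin lie side by side. The kinases MYLK, ROCK1 and ROCK2 raise phosphorylation of the myosin regulatory light chain, which switches the motor on. Monomeric actin holds the coactivator MRTFA in the cytoplasm, and when filaments form MRTFA enters the nucleus and joins SRF on CArG boxes in the promoters of many of these same genes. ACTA2, which encodes alpha-smooth muscle actin, is the usual marker of the myofibroblast state and of myofibroblast-like cancer-associated fibroblasts.

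The CArG boxes near the start sites of the members are shown because they are the element through which SRF and MRTFA, themselves members, act on this gene class. RefSeq promoter windows (GRCh38.p14, 250 bases before to 50 after each listed start) were found for 36 of the 39 members, and none was found for ACTB, MYL9 and TAGLN. A CArG box was searched as CC, then 6 bases that are each A or T, then GG, which reads the same way on both strands. At least 1 match lay in a window of 10 of the 36 members (27.8%), against 438 of 27305 genes (1.60%), or in 10 of 66 member windows against 1.29% of all 35116 windows of that length. Genes with several listed starts had more windows in which a match could fall. The matches are printed 5′ to 3′ on the gene's strand with 10 bases on each side and the box in capitals, in the order ACTG2 at chr2:73892888-73892917 and chr2:73892925-73892954, MYLK at chr3:123620623-123620652, ACTG1 at chr17:81512874-81512903, CNN2 at chr19:1026509-1026538, TPM4 at chr19:16067355-16067384, ACTN1 at chr14:68977718-68977747, FLNA at chrX:154374709-154374738, SVIL at chr10:29634985-29635014, ROCK2 at chr2:11345491-11345520 and SRF at chr6:43171229-43171258.
ACTG2 distal box: gaaaaaaccaCCTTATATGGtaatattgct
ACTG2 proximal box: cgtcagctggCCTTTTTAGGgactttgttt
MYLK box: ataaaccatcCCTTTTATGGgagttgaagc
ACTG1 box: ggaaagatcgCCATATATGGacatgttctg
CNN2 box: cgcctccaggCCTTATAAGGacatttgcgc
TPM4 box: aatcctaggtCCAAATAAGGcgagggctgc
ACTN1 box: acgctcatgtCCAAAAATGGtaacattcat
FLNA box: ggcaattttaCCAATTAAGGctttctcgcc
SVIL box: cgagttcaggCCATAAAAGGcccgtcccat
ROCK2 box: aaatgtacttCCTTAAATGGgtttactggg
SRF distal box: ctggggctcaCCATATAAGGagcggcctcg

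SRF held a second box beginning 10 bases before its start. The boxes of MYLK, ACTG1 and FLNA each began 94 bases upstream of a listed start. The box of CNN2 began at 89 bases and the proximal box of ACTG2 at 73 bases. The only MYLK window lay inside the gene, near its downstream end, as MYLK spans chr3:123610049-123884332 on the minus strand. The SVIL box also belonged to an internal start, in a gene spanning chr10:29457338-29735911. A value per gene does not separate transcripts by start, so these boxes may not belong to the transcripts behind the values. The genes with a box did not share a direction in the expression data described below, where MYLK, TPM4 and ROCK2 were past 2-fold higher in both rhFGF19 libraries and ACTG2, CNN2 and FLNA lay below vehicle in both as deposited. The core of the TEAD element, GGAATG on either strand, was found in a window of 13 of the 36 members and in 16.7% of all genes. A match is a string of letters and not a bound site, and the absence of a match holds for these windows alone.

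The table gives FPKM values, fragments counted per kilobase and scaled to the size of the library, so levels can be compared between genes per length but the depth is unknown. FPKM summed to 302243, 276690 and 281606, and 8891, 10929 and 10905 symbols had at least 1 FPKM. Fold changes are differences of log2(FPKM + 0.1), a scale that understates those of low genes, for the 12422 symbols averaging 0.5 FPKM or more, and a gene was called past 2-fold when the difference exceeded 1. The median difference over these symbols was 0.62 at either dose. Stellate and fibroblast markers were present in part. VIM, COL1A1 and PDGFRB had 439, 78.4 and 3.86 FPKM in vehicle, but COL1A2, PDGFRA, RGS5 and GFAP stayed below 0.3 FPKM in every library and LRAT was listed at 0. Of 18 such markers 10 passed the filter, and the summed FPKM of the list was 1050, 1261 and 1259. At each dose 7 of the 10 lay above vehicle and 3 below it. VIM, the most abundant, had 439, 654 and 649 FPKM. TIMP1 (308, 184 and 193 FPKM), COL6A1 (73.2, 62.9 and 64.1) and THY1 (29.7, 20.6 and 21.1) lay below vehicle. Of 8 differentiated smooth muscle markers 4 passed, led by SMTN at 28.4, 21.6 and 22.2 FPKM. None of 5 endothelial markers (TEK the highest, under 1 FPKM), 1 of 7 blood markers (CD14), 2 of 8 hepatocyte markers (SERPINA1 and ALB) and 3 of 6 epithelial markers (KRT7, KRT8 and KRT18) passed. The summed epithelial markers, mostly KRT18, had 510, 312 and 307 FPKM, and the part of other cells in the results was not tested. In this bulk RNA, fewer cells of a kind and less RNA per cell cannot be told apart.

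Among the members, actin and its monomer-binding partners dominated the cells. PFN1, which feeds actin monomers to growing filaments, had 1830 FPKM in vehicle and ranked 11 among all symbols. ACTG1 and ACTB, the cytoplasmic gamma and beta actins, followed at 1508 and 1053 FPKM (ranks 15 and 29), then the filament-severing protein CFL1 at 826, TAGLN2 at 787 and the cross-linker FLNA at 750. In vehicle 15 of the 39 members had at least 100 FPKM, a level reached by 2.18% of all symbols. The lowest were ROCK1 at 0.92, ROCK2 at 0.72 and LMOD1 at 0.26 FPKM, so the list spanned more than 3 orders of magnitude. All members together took 3.24%, 2.90% and 2.83% of the FPKM totals.

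**Figure D1:**
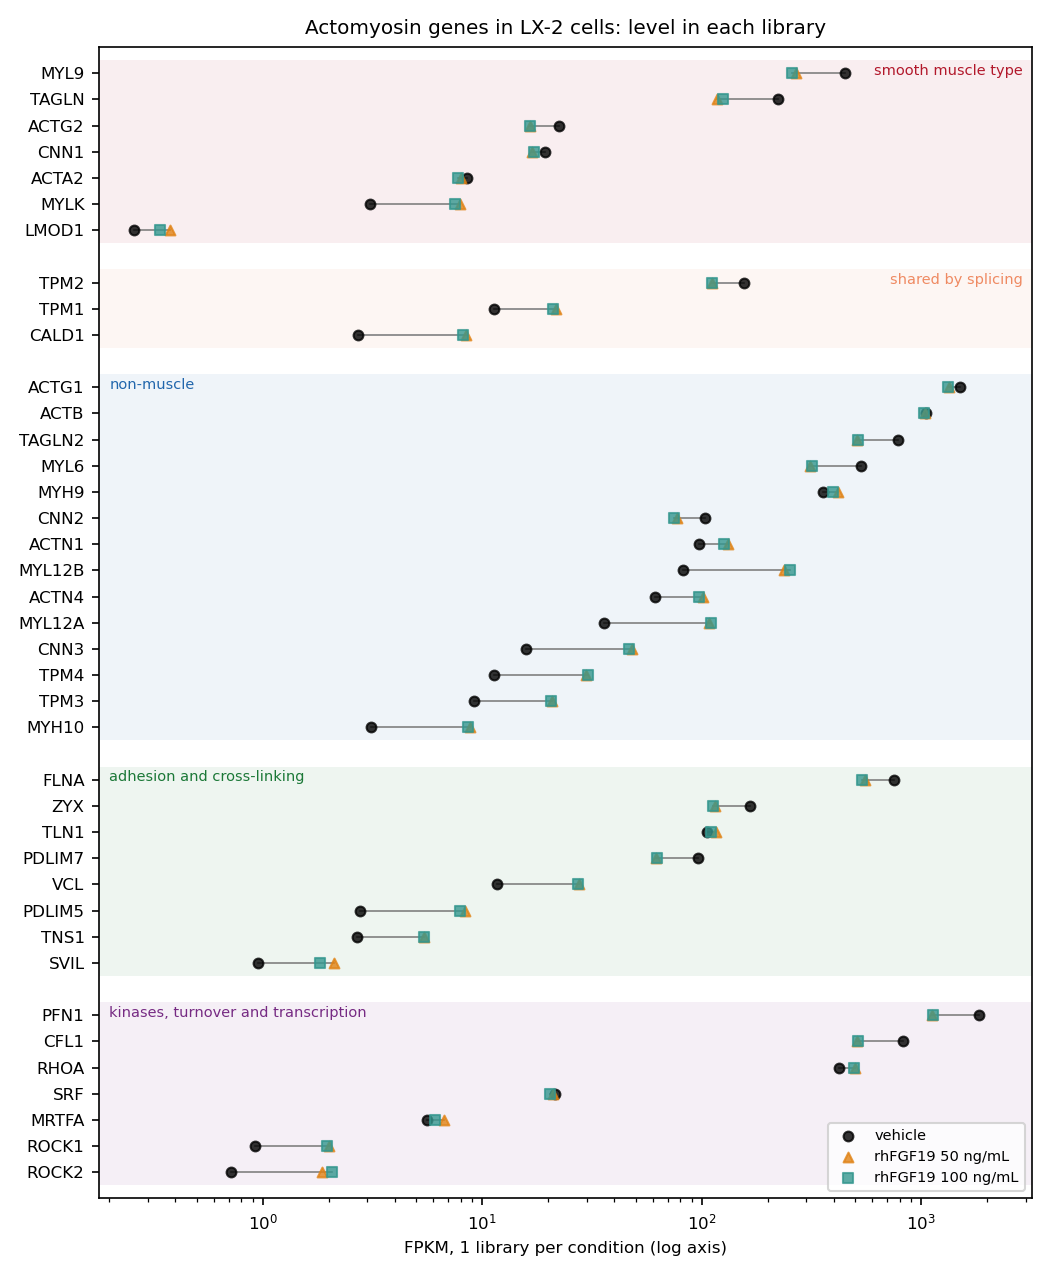
FPKM (log axis) of each of the 39 members in the vehicle library (circles), at 50 ng/mL rhFGF19 (triangles) and at 100 ng/mL (squares), 1 library per condition, grouped by role and ordered by vehicle level. The rhFGF19 symbols nearly coincide for most genes, and the members with the longest lines to the right, such as MYL12A and CNN3, had vehicle levels under 100 FPKM.

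Of the 38 members that passed the filter, 13 were past 2-fold higher than vehicle at the lower dose (34.2%) and 12 at the higher (31.6%), 12 of them in both libraries and SVIL at 50 ng/mL alone. Over all tested symbols the shares higher were 39.5% and 38.6%, so the members' shares were near the background. No member was past 2-fold lower, where the share of all symbols was 1.75% and 1.47%, and 0.636% in both libraries. The 12 were MYLK, CALD1, MYL12A, MYL12B, MYH10, CNN3, TPM3, TPM4, VCL, PDLIM5, ROCK1 and ROCK2, with 36.3% of all symbols higher in both. The median log2 ratio to vehicle was also set to 0 over symbols with at least 1 FPKM in all 3 libraries. With this median ratio set to 0, 10 and 9 members were higher and 1 and 2 lower. With the length trend removed 5 and 5 were higher and 6 and 6 lower. The shares of all symbols past 2-fold were not computed with either change, so these counts have no background beside them. The median of all tested symbols was 0.40 at both doses with the median ratio set to 0, and 0.045 and 0.043 with the length trend removed. Length was the median over the transcripts listed for a gene, such as 572 bases for MYH9 and 1922.5 for MYL9. It may differ from the length of the expressed transcript. In the deposited values another 17 members lay below vehicle in both libraries, and no member had opposite signs at the 2 doses. Just outside the threshold TNS1 differed by 0.99 at both doses, and just inside it ROCK1 differed by 1.05 and 1.01. LMOD1 did not pass the filter.

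**Figure D2:**
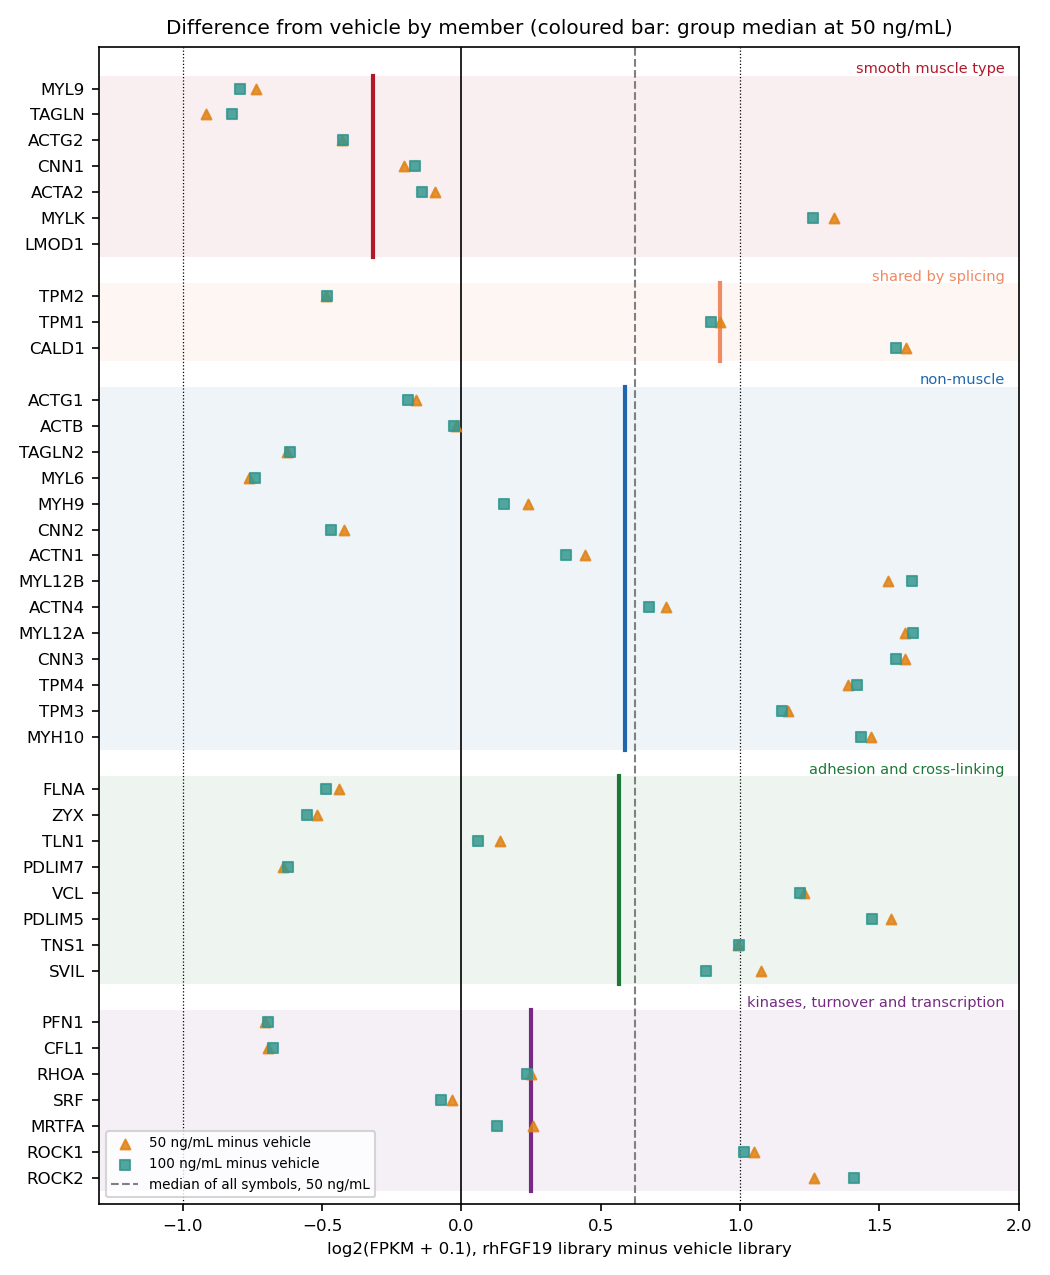
Difference of log2(FPKM + 0.1) from vehicle for each member at 50 ng/mL (triangles) and 100 ng/mL (squares), with 2-fold marked by dotted lines, the median of all symbols at 50 ng/mL by a dashed line and each group's median at 50 ng/mL by a coloured bar. The smooth muscle type median lies at -0.32 and the non-muscle median at 0.59, while single members of both groups fall on either side of 0.

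The smooth muscle type genes lay mostly below vehicle, and none of them passed 2-fold in that direction in the deposited values, although with the median ratio to vehicle set to 0 TAGLN did at both doses (-1.14 and -1.05) and MYL9 at 100 ng/mL (-1.02), and both did with the length trend removed (-1.29 and -1.20 for TAGLN, -1.35 and -1.40 for MYL9). ACTA2 (chr10:88935074-88991339) had 8.55, 8.01 and 7.74 FPKM, and its differences of -0.093 and -0.14 were small in the deposited values. They depended on the scaling, at 0.033 and -0.041 with TPM, -0.32 and -0.36 with the median ratio to vehicle set to 0, and -0.48 and -0.53 with quantile normalization. ACTG2 (chr2:73892314-73919865), the enteric gamma-smooth muscle actin, had 22.3, 16.6 and 16.6 FPKM, or -0.43 and -0.42 on the log2 scale. Both stood far under the cytoplasmic actins, and in this line ACTG2 was the more abundant of the smooth muscle actins. TAGLN (chr11:117199370-117207464), or SM22-alpha, an early smooth muscle marker that binds actin filaments, had 223 FPKM in vehicle, 118 and 126, and its -0.92 and -0.82 were the lowest differences of any member in the deposited values. MYL9 (chr20:36541497-36551447), the smooth muscle-type regulatory light chain, had 449, 270 and 259 FPKM, or -0.74 and -0.79. CNN1, calponin-1, a marker of differentiated smooth muscle, had 19.4, 16.8 and 17.2 FPKM, with -0.20 and -0.17, which turned to 0.089 and 0.11 with the GC trend removed and were also positive with GC and length trends or the GC trend of the longest transcript removed. In the deposited values 5 of the 6 tested genes thus lay below vehicle at both doses. Of all 12422 tested symbols 4265 and 4233 lay below vehicle at 50 and 100 ng/mL. The share below was 31.0% and 30.7% for symbols averaging under 50 FPKM. It was 73.9% and 73.6% for more abundant symbols, the level at which TAGLN and MYL9 stood.

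MYLK (chr3:123610049-123884332), the calmodulin-dependent kinase that phosphorylates the regulatory light chain, was the exception in the group. It had 3.09, 7.96 and 7.55 FPKM, differences of 1.34 and 1.26. LMOD1, leiomodin-1, a nucleator of smooth muscle actin filaments, was barely listed at 0.26, 0.38 and 0.34 FPKM. With MYLK included, the group's median was -0.32 and -0.30, while 0.59 and 0.52 were those of the 14 non-muscle genes. The smooth muscle median was therefore lower than the non-muscle median by 0.90 and 0.82, although the groups overlapped, with ranges of -0.92 to 1.34 and -0.76 to 1.59 at 50 ng/mL. Every alternative run kept that order. The difference of medians lay between -1.16 and -0.57 for the lower dose and between -1.11 and -0.53 for the higher. TPM and the median ratio set to 0 apply a single scaling factor per library, which nearly drops out of this difference. The filter at a mean of at least 1 FPKM removed no gene of either group. These settings are therefore no check of the order. Quantile normalization, trend removal and changed groups could alter it. All runs shared the same vehicle library.

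Tropomyosins line the actin filament and caldesmon restrains myosin on it, and TPM1, TPM2 and CALD1 make both smooth muscle and non-muscle forms by splicing, which a value per gene does not separate. TPM2 had 157, 112 and 112 FPKM (-0.49 and -0.48). TPM1 had 11.3, 21.6 and 21.1 FPKM (0.93 and 0.89, but -0.17 and -0.18 with the GC trend of the longest transcript removed). CALD1 (chr7:134744252-134970729) had 2.72, 8.42 and 8.22 FPKM, with differences of 1.60 and 1.56. The 3 genes thus differed in direction, with medians of 0.93 and 0.89.

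The non-muscle genes lay on both sides of vehicle. The cytoplasmic actins differed little from vehicle, ACTB with 1053, 1039 and 1035 FPKM (-0.018 and -0.025) and ACTG1 with 1508, 1346 and 1321 FPKM (-0.16 and -0.19), and these signs depended on the processing. ACTB turned positive at both doses with TPM, quantile normalization, the GC trend removed and GC and length trends removed. ACTG1 did so at both doses with the GC trend (0.18 and 0.14) or GC and length trends removed, and at 50 ng/mL with quantile normalization or the GC trend of the longest transcript removed. TAGLN2, the non-muscle transgelin, had 787, 509 and 514 FPKM. MYL6, the essential light chain shared by smooth and non-muscle myosin, had 530, 313 and 317 FPKM. CNN2, the calponin of non-muscle cells, had 103, 77.1 and 74.6 FPKM. All 5 lay below vehicle in both rhFGF19 libraries in the deposited values.

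The other non-muscle genes lay above vehicle in the deposited values. Exceptions under other processing were MYH9 with the length trend removed (-0.17 and -0.27) and, at 100 ng/mL, with the median ratio to vehicle set to 0 (-0.072), and ACTN1 (-0.22 and -0.28) and TPM3 (-0.033 and -0.031) with the GC trend of the longest transcript removed. MYH9, the heavy chain of non-muscle myosin IIA, had 356, 419 and 395 FPKM (0.24 and 0.15), while its paralogue MYH10, the heavy chain of myosin IIB, had 3.13, 8.84 and 8.62 FPKM (1.47 and 1.43). The filament cross-linkers ACTN1 and ACTN4 had 97.6, 133 and 127 FPKM and 61.1, 102 and 97.6 FPKM, differences of 0.44 and 0.37 and of 0.74 and 0.67. None of these heavy chains and actinins but MYH10 passed 2-fold. MYL12A (chr18:3247481-3256236) and MYL12B (chr18:3261479-3278461), neighbouring genes for nearly identical non-muscle regulatory light chains, had 35.9, 109 and 111 FPKM and 82.4, 238 and 253 FPKM. Their differences were 1.59 and 1.62 for MYL12A and 1.53 and 1.62 for MYL12B, the largest of any member at 100 ng/mL in the deposited values. Reads that match both genes may have been split between them by the counting, so their values may not be independent. CNN3, the acidic calponin, had 15.9, 48.0 and 46.9 FPKM, and the tropomyosins TPM3 and TPM4 had 9.17, 20.8 and 20.5 FPKM and 11.3, 29.8 and 30.5 FPKM. These 3 genes were past 2-fold higher in both libraries, between 1.15 and 1.59 on the log2 scale.

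Ratios within a family of isoforms do not depend on a single scaling factor per library, although quantile normalization or removal of a trend can change them, and they differed most in the regulatory light chains. MYL9 supplied 79.1%, 43.7% and 41.6% of the light chain FPKM, MYL12B 14.5%, 38.7% and 40.7%, and MYL12A 6.33%, 17.6% and 17.8%. MYL9 exceeded MYL12B 5.45-fold in vehicle but 1.13-fold and 1.02-fold in the rhFGF19 libraries, while the summed FPKM of the 3 genes was 567, 616 and 623. The total thus differed less than its make-up.

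Tropomyosins and calponins showed the same kind of difference. TPM2 held 83.1% of the tropomyosin FPKM in vehicle and 60.7% and 60.8% in the rhFGF19 libraries, TPM4 held 6.01%, 16.2% and 16.6%, and the 4 genes together had 188, 184 and 184 FPKM. CNN3 held 11.5% of the calponin FPKM in vehicle and 33.9% and 33.8% with rhFGF19, CNN2 74.6%, 54.3% and 53.8%, and CNN1 13.98%, 11.8% and 12.4%. The calponin sum was 139, 142 and 139 FPKM. In both families the isoform with the largest vehicle share, TPM2 or CNN2, had a smaller share with rhFGF19.

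Shares differed less in the remaining families. TAGLN2 held 77.95%, 81.2% and 80.4% of the transgelin FPKM and TAGLN the rest. ACTN4 held 38.5%, 43.4% and 43.5% of the actinin FPKM, and MYH10 0.873%, 2.07% and 2.14% of the non-muscle heavy chain FPKM. The smooth muscle actins were minor throughout, ACTA2 at 0.330%, 0.332% and 0.325% and ACTG2 at 0.861%, 0.688% and 0.698% of the FPKM of the 4 actins. The share of ACTA2 was nearly the same in the 3 libraries.

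**Figure D3:**
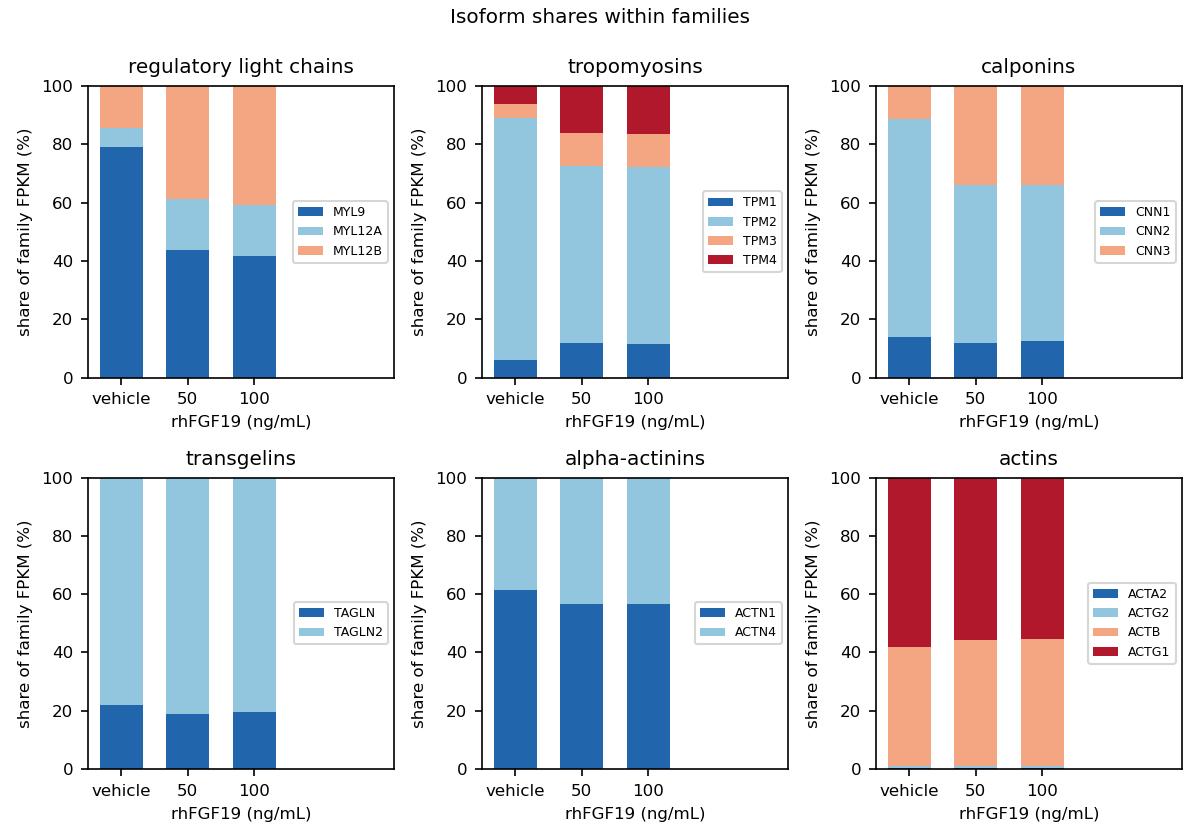
Share of each isoform in the summed FPKM of its family (percent, stacked bars from 0 to 100) in the vehicle library and at 50 and 100 ng/mL rhFGF19, 1 library each. MYL9 takes 79.1% of the regulatory light chain FPKM in vehicle and 41.6% at 100 ng/mL, whereas ACTA2 stays near 0.33% of the actins.

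The genes of focal adhesions and cross-linking had median differences of 0.57 and 0.47, and they also lay on both sides of vehicle. VCL, vinculin, which ties talin to actin, had 11.7, 27.6 and 27.4 FPKM (1.23 and 1.22). PDLIM5, a PDZ and LIM domain scaffold on actinin, had 2.79, 8.32 and 7.92 FPKM (1.54 and 1.47). TNS1, tensin-1, had 2.68, 5.43 and 5.44 FPKM (0.99 at both doses). SVIL, supervillin, a myosin- and actin-binding membrane protein, had 0.95, 2.11 and 1.83 FPKM (1.07 and 0.88), the one member called at a single dose, and at 100 ng/mL it was at -0.015 with quantile normalization. In the deposited values VCL and PDLIM5 were the adhesion genes past 2-fold at both doses.

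The abundant adhesion genes did not reach 2-fold in either direction. FLNA, filamin A, had 750, 553 and 536 FPKM (-0.44 and -0.48, but at 50 ng/mL 0.031 with quantile normalization and 0.065 with GC and length trends removed). ZYX, zyxin, a strain-sensing LIM protein, had 165, 116 and 112 FPKM (-0.52 and -0.56), and at 50 ng/mL it turned to 0.052 with GC and length trends removed and to 0.0012 with the GC trend of the longest transcript removed. PDLIM7 had 96.6, 61.9 and 62.7 FPKM (-0.64 and -0.62). TLN1, the integrin-activating talin, had 106, 117 and 110 FPKM (0.14 and 0.059), differences that were negative with the median ratio to vehicle set to 0 or the length trend removed.

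In the group of kinases, turnover and transcription genes, ROCK1 and ROCK2 lay above vehicle and the filament turnover genes below it in the deposited values. ROCK1 and ROCK2, which act on the myosin light chain and its phosphatase, had 0.92, 2.01 and 1.96 FPKM and 0.72, 1.87 and 2.08 FPKM, with ROCK2 differing by 1.26 and 1.41. Their activator RHOA, a small GTPase, had 421, 500 and 496 FPKM (0.25 and 0.24), but lay below 0 at both doses with the GC trend (-0.15 and -0.15), the length trend, both trends or the GC trend of the longest transcript (-0.67 and -0.67) removed. CFL1, cofilin-1, had 826, 511 and 517 FPKM (-0.69 and -0.68), and PFN1 had 1830, 1122 and 1132 FPKM (-0.71 and -0.69). SRF had 21.6, 21.1 and 20.5 FPKM (-0.034 and -0.073), and its partner MRTFA, formerly MKL1, had 5.59, 6.70 and 6.11 FPKM (0.26 and 0.13). The mRNA of the transcription pair thus differed from vehicle by no more than 0.26 on the log2 scale in the deposited values, and the sign for both genes depended on the processing. The group's median was 0.25 and 0.13.

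The differences varied with the level of a gene and with its transcript composition. Of the 20 members averaging 50 FPKM or more, 2 were past 2-fold higher at 50 ng/mL, MYL12A and MYL12B, and 13 lay below vehicle, with a median of -0.43. Over all 972 symbols at that level the median was -0.44, with 6.69% past 2-fold higher and 73.9% below vehicle. Of the 18 less abundant tested members, 11 were past 2-fold higher and the median was 1.12, against 42.3% and 0.76 over 11450 symbols. The abundant members as a group therefore sat where other abundant genes sat.

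Transcript GC content, the median over the transcripts listed for a gene, moved with the difference. The 13 members past 2-fold at 50 ng/mL had GC contents from 35.4% to 51.8%, and the 17 below vehicle had 51.9% to 65.6%. The 8 members between these sets, at 0 to 1 on the log2 scale, had 50.4% to 60.9%, a range that overlapped both. Across the 38 members Spearman's correlation between GC content and the difference was -0.76 and -0.77, and across 12397 symbols it was -0.77 and -0.77. These are descriptions across genes that share the single vehicle library. Between the rhFGF19 libraries the value over members was -0.11. The families whose shares differed most also spanned the widest GC range, with MYL9 at 60.9% and MYL12A at 44.9%, TPM2 at 59.1% and TPM3 at 46.8%, and CNN1 at 59.5% and CNN3 at 44.6%, while TAGLN and TAGLN2 had 58.8% and 57.0%. The actins spanned 51.9% to 62.7%, yet their shares differed little, with ACTB at 40.6%, 43.1% and 43.5%. Whether GC content acted through how the vehicle library was made was not tested and cannot be told apart from rhFGF19, since no other library lacks rhFGF19.

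**Figure D4:**
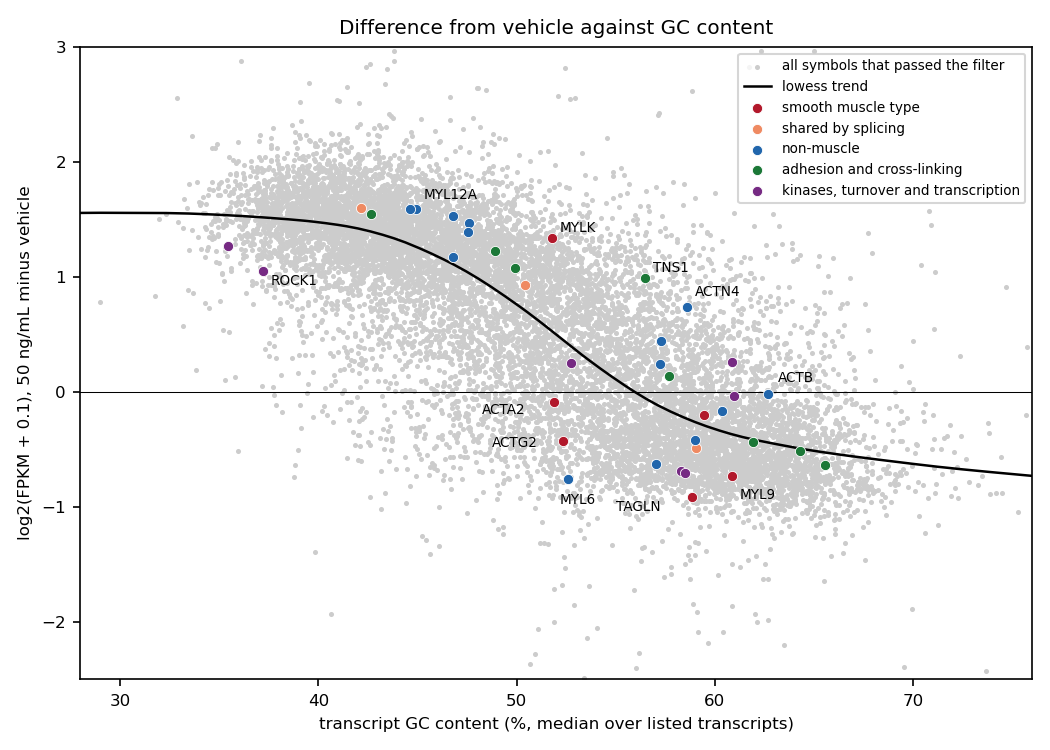
Difference of log2(FPKM + 0.1) between 50 ng/mL and vehicle against transcript GC content (percent) for all tested symbols (grey), with their lowess trend (line) and the 38 tested members coloured by role. Symbols beyond the axes are not drawn. MYLK and TNS1 lie above the trend and MYL6, ACTG2, ACTA2 and TAGLN below it.

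After a lowess trend on GC content was subtracted, none of the 12 members called in both libraries stayed past 2-fold. TNS1, just under 2-fold as deposited, was past it at 1.05 and 1.04, and 1 member was past 2-fold lower, MYL6 at -1.18 and -1.15. Over all symbols the shares after this step were 3.74% higher and 5.12% lower for the lower dose and 3.33% and 4.59% for the higher. MYLK stood 0.81 and 0.75 above genes of similar GC content and ACTN4 0.97 and 0.89. The smooth muscle actins stood below them, ACTA2 at -0.61 and -0.64 and ACTG2 at -0.88 and -0.86, as did TAGLN at -0.66 and -0.59. MYL12A and MYL12B, at 1.59 and 1.53 as deposited, stood 0.33 and 0.42 above the trend at 50 ng/mL. ROCK1 and ROCK2 turned to -0.47 and -0.27 there. Removing the trend also centres the differences, so these values are relative to other genes.

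The order of the smooth muscle and non-muscle groups remained after this step. The smooth muscle median became -0.49 and -0.51, and the non-muscle median 0.34 at both doses. Relative to genes of similar GC content 4 of 6 smooth muscle genes lay below 0 and 11 of 14 non-muscle genes above it at 50 ng/mL. Over all 12397 symbols with a GC content 6116 lay below 0 and 6281 above it. The light chain ratio kept its direction with a smaller size. MYL9 relative to MYL12B differed from vehicle by -2.27 and -2.41 on the log2 scale as deposited and by -0.78 and -0.97 with the GC trend removed. For the calponins CNN1 and CNN3 the change of ratio shrank from -1.80 to -0.22 at 50 ng/mL. The smooth to non-muscle actin ratios went the other way, ACTA2 to ACTB from -0.076 to -1.03 and ACTG2 to ACTG1 from -0.27 to -1.06 at 50 ng/mL. Both gaps were smaller with the GC trend of the longest transcript removed. ACTA2 was then at -0.53 and ACTB at -0.050, and ACTG2 at -0.82 and ACTG1 at 0.031, at 50 ng/mL.

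**Figure D5:**
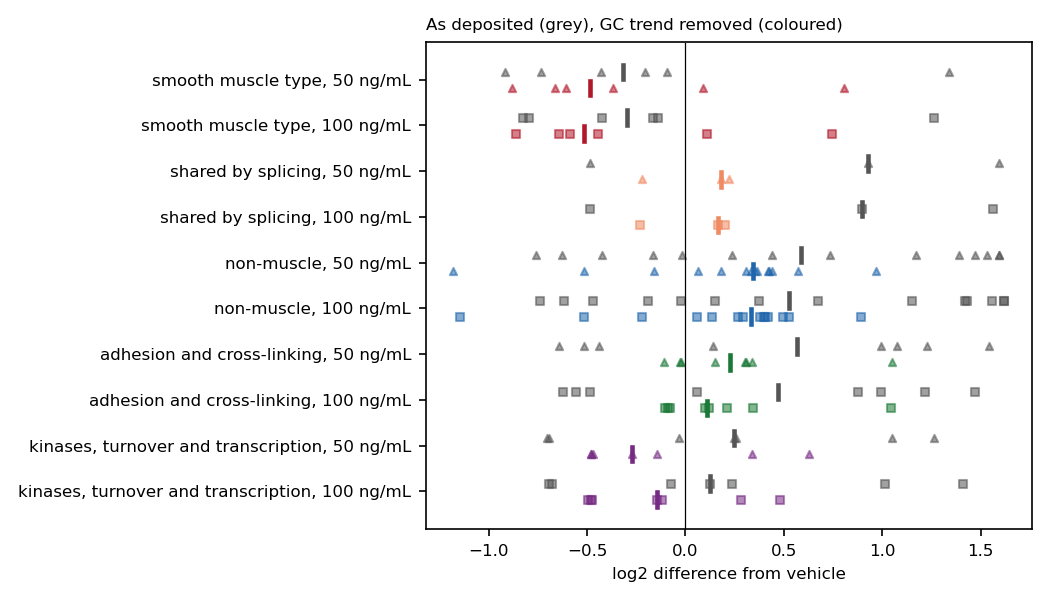
Log2 difference from vehicle of the tested members by group at 50 ng/mL (triangles) and 100 ng/mL (squares), as deposited (grey) and with the lowess trend on GC content removed (coloured), with vertical bars at the medians. The smooth muscle type median is below 0 and the non-muscle median above 0 in both versions, and the spread of most groups narrows.

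Neither dose stood apart from the other. No member was past 2-fold between 100 and 50 ng/mL, where 0.845% of all symbols were higher and 0.797% lower with the higher dose. The differences ranged from -0.20 for SVIL to 0.15 for ROCK2 with an SD of 0.060 across the 38 members, against an SD of 0.32 across all tested symbols. These SDs were not matched by level, as 20 of the 38 members averaged at least 50 FPKM, against 972 of 12422 symbols. The comparisons with vehicle share the same vehicle library, so their likeness is no independent repeat.

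The wider actin system was described by lists that exclude the members. Of the 12 Arp2/3 and capping protein genes, which nucleate branched filaments and cap their ends, 7 were past 2-fold higher in both libraries and none lower, where the shares of all symbols were 36.3% and 0.636%, with medians of 1.13 and 1.13. ARPC3 had 11.3, 40.4 and 39.4 FPKM and CAPZA1 6.99, 21.2 and 21.9 FPKM, while ARPC4 had 103, 58.8 and 62.0 FPKM and ARPC1B 67.8, 64.5 and 63.7 FPKM. The median GC content of this list was 45.4%, and with the GC trend removed its median was -0.058 and -0.052.

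Of 18 genes of actin turnover and monomer binding 9 were past 2-fold higher in both libraries, against 36.3% of all symbols. The twinfilin TWF1 had 4.66, 16.1 and 16.5 FPKM and TWF2 195, 113 and 113 FPKM. CFL2, the muscle cofilin, had 2.73, 7.97 and 8.32 FPKM, the opposite side of vehicle from CFL1 above, and the filament-capping protein CAPG had 41.3, 20.6 and 21.7 FPKM. The transcripts of TWF1 and CFL2 had GC contents of 38.8% and 37.7% and those of TWF2 and CFL1 63.1% and 58.3%. Among 22 tested focal adhesion genes 7 (31.8%) were past 2-fold higher in both libraries, near the 36.3% of all symbols, with a median of 0.33 and 0.28. FERMT2, kindlin-2, differed by 1.65 and 1.71 and the actin-binding protein NEXN by 1.37 and 1.75, whereas CRIP2 had -0.78 and -0.80 and SORBS3 -0.70 and -0.71.

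Tubulins, the subunits of microtubules, gave a comparison outside the actin system. None of 11 was past 2-fold in either direction in the deposited values, and their medians were -0.35 and -0.23. Of all symbols 36.3% were higher in both libraries and 0.636% lower. Most of the tubulins averaged at least 50 FPKM. Over all symbols at that level 6.69% were past 2-fold higher at each dose, and the medians were -0.44 and -0.41. The median GC content of this list was 56.5%, and with the GC trend removed its median was -0.18 and -0.17. TUBA1C was then past 2-fold lower at -1.15 and -1.05. TUBB6 was highest at 0.36 and 0.34, TUBA4A had -0.17 and 0.078, and TUBB4B and TUBA1C were lowest at -0.66 and -0.62 and at -0.60 and -0.52. Among 12 tested genes of other muscle contractile proteins 5 (41.7%) were past 2-fold higher in both libraries, near the 36.3% of all symbols. MYOCD, myocardin, the SRF coactivator of smooth muscle, had 0.47, 1.85 and 1.46 FPKM, and the LIM protein FHL1 had 4.98, 13.4 and 13.4 FPKM. TNNT1, the slow skeletal troponin T, had 169, 102 and 105 FPKM, and CSRP1, a LIM protein of smooth muscle, had 70.9, 44.0 and 44.2 FPKM. MYH11, the heavy chain of smooth muscle myosin, was listed at 0, 0.03 and 0.03 FPKM and DES, desmin, at 0, 0 and 0.08 FPKM. Thus the line was listed with mRNA for the smooth muscle actins, TAGLN, CNN1 and MYL9 but with almost none for MYH11 or DES.

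Other table rows could share reads with members. By name 23 rows were pseudogenes of 10 members, of which 4 reached 1 FPKM in any library, the highest PFN1P1 at 12.8 FPKM in vehicle, where PFN1 had 1830. Coordinates of 24 members overlapped other rows. At 10% or more of the member's vehicle level these were MYL6B (69.8 FPKM, on the strand of MYL6), SGSM3 (6.51 FPKM, opposite MRTFA) and SVIL-AS1 and CKS1BP2 (1.04 and 1.85 FPKM, opposite SVIL). Without MYL6, MRTFA and SVIL, 12 members were past 2-fold higher at each dose, and the median of the adhesion group was 0.14 and 0.059.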

How the data were processed

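The mRNA of 3 LX-2 cultures was sequenced, 1 library each for vehicle and rhFGF19 at 50 and 100 ng/mL. Alignment by the authors used HISAT2. The deposited table holds FPKM of 26108 genes to 2 decimals, whereas the methods describe logCPM, and the program behind the FPKM is not given in the sources used here. The submitters' processing notes also name StringTie 1.3.0, Bowtie 0.12.2 and HISAT2 2.0 and the builds hg19 and mm8, without roles. Coordinates of the table overlapped GRCh38 positions for 99.8% of 25531 identifiers found in GENCODE v29 and for all 39 members. FPKM normalizes by library and length and keeps no counts, so depth is unknown and no interval can be given.

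Rows sharing a symbol were summed (1134 symbols). Differences of log2(FPKM + 0.1) between single libraries were computed for the 12422 symbols averaging 0.5 FPKM or more. More than 1 on the log2 scale was called, the study's criterion. GC content and length were medians over listed transcripts (found for 99.8% of tested symbols), and trends were removed by lowess with a span of 0.3. All listed transcripts counted alike, so the length of a gene may not be that of its expressed transcript. Values with the length trend removed carry this limit. Members, groups and lists were chosen with earlier results of these data known. All members are named. The result of 1 further list is not reported here. From each other list the 2 highest and 2 lowest genes by mean difference at a mean of at least 1 FPKM are named, and from each marker list the most abundant gene, while other genes named from these lists were chosen after their values were seen. Python 3.11.15, NumPy 2.4.6, pandas 2.3.3, SciPy 1.17.1, statsmodels 0.14.6 and matplotlib 3.10.9 were used, and the procedure was tested on simulated data. Results were recomputed under 16 other settings and 2 chosen after seeing the data.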

Additional observations from a re-analysis of the deposited data

Results flagged for a closer look

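Outside the members, 3 rows named as pseudogenes or antisense genes of members had at least 1 FPKM in both rhFGF19 libraries and more than in vehicle. SVIL-AS1, antisense to SVIL, had 1.04, 1.91 and 1.84 FPKM (vehicle, 50 and 100 ng/mL), where SVIL itself had 0.95, 2.11 and 1.83. Whether the reads were assigned by strand is not given in the sources used here, so reads of the pair cannot be told apart. MYL12BP1, a pseudogene of MYL12B, had 1.75, 2.94 and 3.56 FPKM, and TPM3P9, a pseudogene of TPM3, had 0.75, 2.13 and 1.5 FPKM. Their parent genes also lay above vehicle in both libraries. With 1 library per condition no sample could be compared with others of its group.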

How the results depend on the processing

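No paired analysis was possible because each condition has 1 library. A value was taken as moved when it shifted by more than 0.060 on the log2 scale, the SD across members of the difference between the rhFGF19 libraries, and causes were not tested beyond what an alternative does by construction. Pairs of values below are for 50 and then 100 ng/mL, and groups follow the order smooth muscle, shared by splicing, non-muscle, adhesion, and the kinases, turnover and transcription genes. The smooth muscle median stayed below 0 and the non-muscle median above 0 under all alternatives run. A pseudocount of 0.01, a mean of at least 1 FPKM and keeping the highest row per symbol moved no group result. TPM gave medians of -0.19 and -0.19, 1.06 and 1.001, 0.72 and 0.63, 0.70 and 0.59, and 0.38 and 0.23. With the median ratio to vehicle set to 0 they were -0.54 and -0.52, 0.70 and 0.67, 0.36 and 0.30, 0.34 and 0.25, and 0.019 and -0.094, with 1 and 2 members past 2-fold lower. Quantile normalization gave -0.39 and -0.40, 0.79 and 0.75, 0.77 and 0.71, 0.23 and 0.14, and -0.0099 and -0.057, with 5 and 5 members higher and smooth muscle minus non-muscle at -1.16 and -1.11. The median difference of all symbols was 0.77 at 50 ng/mL with TPM, 0.40 with that median ratio set to 0, 0.10 with quantile normalization and 0.0073 with the GC trend removed. That median ratio was taken over symbols with at least 1 FPKM in all 3 libraries, so the median of all tested symbols stayed above 0.

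Removing the GC trend gave -0.49 and -0.51, 0.18 and 0.16, 0.34 and 0.34, 0.23 and 0.11, and -0.27 and -0.15, with 1 and 1 members higher, 1 and 1 lower and a group difference of -0.83 at 50 ng/mL. ROCK1 turned to -0.47 and -0.49 and ROCK2 to -0.27 and -0.12. Removing the length trend gave -0.73 and -0.70, 0.57 and 0.54, 0.24 and 0.17, -0.021 and -0.065, and -0.19 and -0.31, with 5 and 5 higher, 6 and 6 lower and a group difference of -0.97 at 50 ng/mL. Removing both gave -0.47 and -0.51, 0.27 and 0.25, 0.37 and 0.34, 0.20 and 0.18, and -0.39 and -0.27, with 2 and 1 higher, 1 and 1 lower and a group difference of -0.84 at 50 ng/mL, ROCK1 at -0.39 and -0.42 and ROCK2 at -0.42 and -0.27. With the GC content of the longest transcript, chosen after seeing the data, medians were -0.46 and -0.51, -0.17 and -0.18, 0.22 and 0.19, 0.23 and 0.14, and -0.36 and -0.38, with 1 and 1 higher, 1 and 1 lower, a group difference of -0.68 and -0.70, ROCK1 at -0.36 and -0.38, ROCK2 at -0.16 and -0.0046 and TPM3 at -0.033 and -0.031.

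A pseudocount of 1 gave 0.41 and 0.30 for adhesion. Without a filter, which admits LMOD1, the smooth muscle median was -0.20 and -0.17 and the group difference -0.79 and -0.69. Without MYL6, MRTFA and SVIL, also chosen after seeing the data, medians were 0.74 and 0.67 for non-muscle, 0.14 and 0.059 for adhesion and 0.11 at 50 ng/mL for the last group, with a group difference of -1.05 and -0.97. It was -0.79 and -0.69 with TPM1, TPM2 and CALD1 added to smooth muscle and -0.57 and -0.53 with the adhesion and last groups added to non-muscle. With the mean of both rhFGF19 libraries in place of 100 ng/mL, medians were 0.54 for adhesion and 0.19 for the last group. At 1.5-fold, 7 and 7 members were lower. Shares of all symbols past 2-fold were computed only for the deposited values and with the GC trend removed. The counts of members under the other settings of this section therefore have no background beside them. FPKM keeps no depth, so low genes such as ROCK1, ROCK2, SVIL and LMOD1 are the least certain.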
